A study of Mus musculus with 9 samples.

Results

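The 10 integrin genes described here encode adhesion chains of haematopoietic stem and progenitor cells: the alpha chain genes Itga4, Itga5, Itga6, Itgal, Itgam and Itgav and the beta chain genes Itgb1, Itgb2, Itgb3 and Itgb7. They were chosen by gene name, with earlier results of these data known. The array annotation placed 21 probe sets on them, out of 22690 on the array. After 1 probe set was kept for each gene, the brightest over the 9 arrays, the 10 genes stood among 12393. Expression was measured in bone marrow KSL cells of C57BL/6 background, a stem and progenitor fraction sorted for the receptor c-Kit and for Sca-1 and against lineage markers and IL7Ra. Control mice carried Runx1 floxed/floxed alleles without Mx-Cre (MxCre-/-), and Runx1KO mice carried the same floxed alleles with Mx-Cre (MxCre+/-), and both were sampled 3 months after poly IC. The Mx promoter answers to interferon, which poly IC induces, and is not restricted to blood cells. RUNX1(41-214) cells came from mice transplanted with cells carrying a retroviral vector for residues 41 to 214 of RUNX1, a stretch that holds the Runt domain, which contacts DNA. These cells were taken 4 months after transduction and transplantation. The labels of that group name neither floxed alleles nor poly IC, and no transplanted empty-vector group was analysed here. The fragment therefore cannot be told apart from the transduction, the transplantation, the time of sampling or any difference in poly IC or Runx1 alleles. Each group had 3 arrays labelled as biological replicates; the labels do not say whether animals were pooled, and the spread between arrays may be partly technical.

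An integrin at the cell surface is a pair of 1 alpha and 1 beta chain that binds matrix proteins or receptors on other cells. Its grip is switched on from inside the cell when talin and kindlin bind the tail of the beta chain. In the bone marrow, the pair of the Itga4 and Itgb1 products (VLA-4) holds stem cells to VCAM1 and fibronectin, and the pair of Itga4 and Itgb7 binds MAdCAM1. Itga5 and Itga6 products pair with the Itgb1 chain to bind fibronectin and laminin, respectively. The Itgal and Itgam products pair with the Itgb2 chain into LFA-1 and Mac-1, the leukocyte integrins that bind ICAMs, and Itgav and Itgb3 products form a receptor for vitronectin and other RGD-containing proteins.

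Of the 10 genes, 3 passed the test in at least 1 comparison, and each of these was higher in the altered cells. Split by comparison, 1 passed in Runx1KO against control (0.347% of all genes), 3 in RUNX1(41-214) against control (4.28%) and 0 between the altered groups (1.36%). Itgb2, the common beta chain of leukocyte integrins, rose in Runx1KO cells (2.00-fold) and in RUNX1(41-214) cells (1.81-fold). Itga6, the laminin receptor chain, rose in RUNX1(41-214) cells (1.64-fold), as did Itga5, the fibronectin receptor chain. The Itga5 signal was dim, its log2 difference ran from 0.70 to 2.18 with the offset used, its other probe set was at -0.11, and its call was lost in 5 of 19 alternatives. No integrin gene passed as lower. Itgb1, the beta chain shared by VLA-4 and the fibronectin and laminin receptors, was within 0.11 of control on the log2 scale in both groups. Its control arrays spread widely (SD 0.68), and its 95% intervals, -0.65 to 0.61 in Runx1KO and -0.74 to 0.52 in RUNX1(41-214) cells, leave room for a change either way.

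Array medians of the deposited signal ran from 125 to 147. The log2 ratio of 3′ to 5′ Gapdh control signal, a sign of RNA integrity, was 1.85 in control replicate 2 and 2.13 in Runx1KO replicate 3, against 0.98 to 1.29 elsewhere. Control replicate 2 was also the lowest control array for 6 of the 10 integrin genes, and control replicate 1 the highest for 7. Runx1, the targeted gene, was at 10.40 ± 0.45 in control, 11.45 ± 0.27 in Runx1KO and 10.94 ± 0.12 in RUNX1(41-214) cells (log2 signal, SD, n = 3 each), and its difference of 1.05 ± 0.21 in Runx1KO cells did not pass (adjusted p = 0.0740). The next brightest Runx1 probe sets were at 1.58 and 1.03 in Runx1KO and at 1.38 and 1.07 in RUNX1(41-214) cells against control. That at 1.07 passed (limma, adjusted p = 0.0291 over all probe sets). The dimmest were at 0.24 and 0.15 in Runx1KO and at 0.59 and 0.65 in RUNX1(41-214) cells, and did not pass. Which exon is deleted and where these probes lie on the transcript is not known here, so this signal does not check the deletion. All values below are log2(signal + 16) after quantile normalization unless said otherwise, and differences on this scale understate the change of dim genes. P-values are limma's, adjusted by Benjamini-Hochberg over 12393 genes with a threshold of 0.05. In sorted bulk cells, fewer cells of a type and less RNA per cell cannot be told apart.

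**Figure D1:**
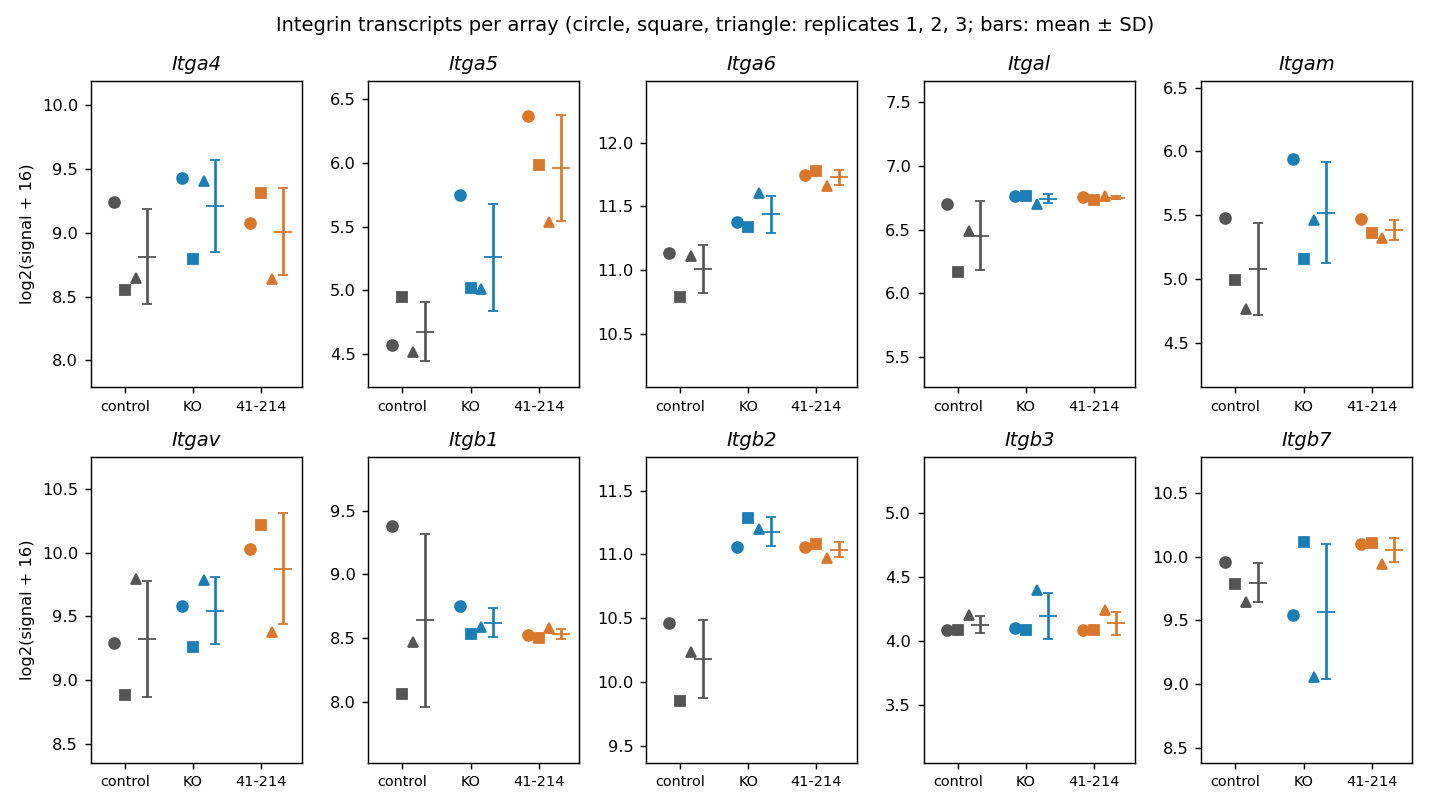
Log2(signal + 16) of the 10 integrin genes on each of the 9 arrays, by group (control, Runx1KO as KO, RUNX1(41-214) as 41-214), with symbols for replicates and bars for mean ± SD, every panel spanning the same height. The Itgb2 arrays of both altered groups lie above all control arrays, the Itga6 arrays of the 3 groups do not overlap, and the Itgb1 control arrays spread from 8.06 to 9.38.

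Itgb2 had signals of 10.46, 9.85 and 10.23 in the control arrays, 11.05, 11.28 and 11.20 in the Runx1KO arrays and 11.06, 11.08 and 10.97 in the RUNX1(41-214) arrays. Every array of either altered group lay above every control array, and the altered groups overlapped each other. Before the log scale, the deposited signal was 915 to 1407 in control and 1970 to 2544 over the altered groups. The difference from control was 1.00 ± 0.16 (SE) in Runx1KO cells (adjusted p = 0.0239) and 0.86 ± 0.16 in RUNX1(41-214) cells (adjusted p = 0.00939). Between the altered groups it was -0.14 (95% interval -0.49 to 0.20), an interval that leaves room for either sign.

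The Runx1KO call of Itgb2 was close to the threshold. It did not pass without control replicate 3 (adjusted p = 0.0680), without Runx1KO replicate 1 (0.0610), 2 (0.127) or 3 (0.0905), without RUNX1(41-214) replicate 1 (0.0601) or 2 (0.0561), with only the 6 arrays compared (0.131), or without the pair of arrays with high Gapdh ratios (0.0556), while the difference stayed between 0.82 and 1.14 in all 20 alternatives. The RUNX1(41-214) call was lost in 1 alternative, without RUNX1(41-214) replicate 2 (0.83, adjusted p = 0.0514).

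The alpha partners of Itgb2 did not pass. Itgal, the LFA-1 chain of lymphocytes and other leukocytes, was at 6.70, 6.16 and 6.49 in control arrays, at 6.77, 6.76 and 6.70 in Runx1KO arrays and at 6.76, 6.74 and 6.76 in RUNX1(41-214) arrays. The 6 altered arrays fell between 6.70 and 6.77, and control replicate 1 reached the lowest Runx1KO array. Its differences from control were 0.29 ± 0.20 (adjusted p = 0.840) and 0.30 ± 0.20 (adjusted p = 0.535). Itgam, the Mac-1 chain that also serves as a lineage marker of myeloid cells in such sorts, was dim. Its arrays read 5.48, 4.99 and 4.76 in control, 5.94, 5.15 and 5.46 in Runx1KO and 5.47, 5.36 and 5.32 in RUNX1(41-214), overlapping throughout. The Itgam differences were 0.44 (95% interval -0.06 to 0.94) and 0.31 (-0.19 to 0.81). Itgax, the CD11c chain of dendritic cells and a further partner of Itgb2, moved the other way in RUNX1(41-214) cells, where it fell by 1.39 ± 0.22 (adjusted p = 0.00400), and was at -0.81 ± 0.22 in Runx1KO cells (adjusted p = 0.227).

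Itga6 had signals of 11.13, 10.79 and 11.11 in control arrays, 11.38, 11.34 and 11.60 in Runx1KO arrays and 11.74, 11.78 and 11.66 in RUNX1(41-214) arrays. The groups stood in the order control, Runx1KO, RUNX1(41-214) with no overlap between neighbours. The step from control to RUNX1(41-214) was 0.72 ± 0.12 (adjusted p = 0.00667). The intermediate steps did not pass: Runx1KO minus control was 0.43 ± 0.12 (adjusted p = 0.272) and RUNX1(41-214) minus Runx1KO was 0.29 ± 0.12 (adjusted p = 0.430). The other Itga6 probe set, also bright, was at 0.53 ± 0.32 and 0.62 ± 0.32 against control, with overlapping arrays, and did not pass (adjusted p = 0.427 over all probe sets for RUNX1(41-214)). With the mean of the probe sets, Itga6 was at 0.67 in RUNX1(41-214) cells and did not pass (adjusted p = 0.121). This was the 1 alternative of 20 that ended its call.

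Itga5 was read near the bottom of the scale, and 23.6% of all genes had a lower mean. Its deposited signals were 7.66, 15.8 and 7.12 in control arrays, 38.0, 16.9 and 15.6 in Runx1KO arrays and 60.1, 45.5 and 30.5 in RUNX1(41-214) arrays. On the log2 scale these became 4.57, 4.95 and 4.52, then 5.75, 5.02 and 5.01, then 6.37, 5.98 and 5.53. The RUNX1(41-214) arrays lay above all control arrays, and the brightest Runx1KO array reached into the RUNX1(41-214) range. The difference was 1.28 ± 0.25 in RUNX1(41-214) cells (adjusted p = 0.0136), 0.58 ± 0.25 in Runx1KO cells (adjusted p = 0.656) and 0.70 ± 0.25 between the altered groups (adjusted p = 0.309).

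For a signal this close to the offset, the size of the difference depended on the offset, 2.18 with an offset of 1 and 0.70 with an offset of 50, and passed with each. The other Itga5 probe set, dimmer still, was at -0.11 ± 0.13 in RUNX1(41-214) cells, and the mean of the probe sets gave 0.59, which did not pass (adjusted p = 0.0602). The call was also lost without control replicate 1 (adjusted p = 0.0638) or 3 (0.0670) and without RUNX1(41-214) replicate 1 (0.0624) or 2 (0.0537).

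**Figure D2:**
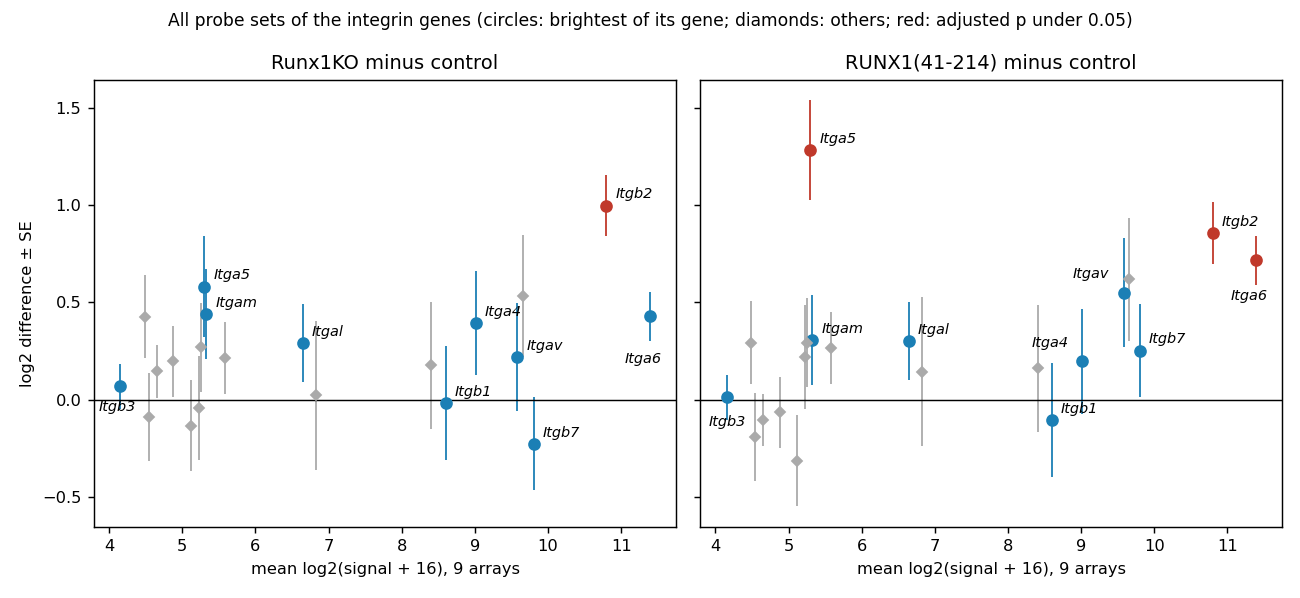
Difference from control ± SE of each of the 21 integrin probe sets against its mean log2(signal + 16) over 9 arrays, for Runx1KO (left) and RUNX1(41-214) (right), tested over all probe sets. The passing points (red) are Itgb2 on both sides and Itga6 and Itga5 on the right, and the other, dimmer Itga5 probe set lies near 0.

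RefSeq promoter sequence (GRCm38.p6) was at hand for 6 of the 10 genes, Itga4, Itga5, Itgam, Itgav, Itgb1 and Itgb7. The 250 bases before the start taken for each promoter were searched on both strands. For Itga4, Itga5, Itgam and Itgb1 this window adjoined the start of the annotated gene. For Itgav (chr2:83724147-83724396) and Itgb7 (chr15:102231936-102232185) it lay inside the annotated gene, so it does not cover the bases before the gene. The core letters that Runx proteins bind are TGTGGT (which on the other strand reads ACCACA) and TGCGGT (where the other strand reads ACCGCA). The third motif was the purine-rich GAGGAA (on the other strand read as TTCCTC) bound by PU.1, an ETS factor of myeloid genes. TGTGGT occurred in 14% of all 32851 promoter windows of this length, TGCGGT in 5.1% and GAGGAA in 23.3%. No matches overlapped in the 6 integrin windows. Of the 6 integrin windows, that of Itga4 held TGTGGT, on the reverse strand 60 bases before the start, and TGCGGT was in none. The windows with GAGGAA were those of Itga5 (reverse strand, 127 bases before the start), Itgam, Itgav and Itgb1. The windows of Itga5, the member with promoter sequence that passed the test, and of Itga4, which holds the Runx core and did not pass, are printed 5′ to 3′ along the gene with these matches in capitals, at chr15:103366792-103367041 on the minus strand and chr2:79255176-79255425 on the plus strand.
Itga5: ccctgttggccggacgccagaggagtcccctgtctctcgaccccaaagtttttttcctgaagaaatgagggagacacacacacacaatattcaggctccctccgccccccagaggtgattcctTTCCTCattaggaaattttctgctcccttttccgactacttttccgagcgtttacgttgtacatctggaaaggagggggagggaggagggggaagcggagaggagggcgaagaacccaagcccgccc
Itga4: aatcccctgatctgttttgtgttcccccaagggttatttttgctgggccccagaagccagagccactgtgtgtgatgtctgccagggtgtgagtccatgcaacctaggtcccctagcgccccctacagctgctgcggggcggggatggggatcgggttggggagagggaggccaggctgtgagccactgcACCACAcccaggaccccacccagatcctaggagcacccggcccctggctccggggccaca
A match is a string of letters and says nothing about binding in these cells.

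Itga4, the alpha chain of VLA-4, was at 9.24, 8.55 and 8.65 in control arrays, 9.43, 8.79 and 9.40 in Runx1KO arrays and 9.08, 9.31 and 8.64 in RUNX1(41-214) arrays. The arrays of the 3 groups overlapped. Its differences were 0.39 (95% interval -0.19 to 0.97) in Runx1KO and 0.20 (-0.38 to 0.78) in RUNX1(41-214) cells. The estimate for Itgb2 in Runx1KO cells lay above both intervals, narrowly for Runx1KO, but the interval of Itgb2 there (0.65 to 1.34) overlapped both. Its 2 other probe sets, both dim, were at 0.21 and 0.20 in Runx1KO and at 0.27 and -0.07 in RUNX1(41-214) cells.

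Itgb1, the beta chain that Itga4, Itga5 and Itga6 products share, had control arrays of 9.38, 8.06 and 8.47, Runx1KO arrays of 8.75, 8.53 and 8.59 and RUNX1(41-214) arrays of 8.52, 8.50 and 8.58. The altered arrays lay inside the control spread, whose SD of 0.68 compares with 0.11 and 0.04 in the altered groups. Its differences were -0.02 ± 0.29 and -0.11 ± 0.29, with 95% intervals from -0.65 to 0.61 and from -0.74 to 0.52. Without control replicate 1 they were 0.35 and 0.27, still short of the threshold (adjusted p = 0.604 and 0.652). The next brightest Itgb1 probe sets showed the same control spread, at 8.96, 7.66 and 8.25 and at 7.72, 5.99 and 6.61, with control replicate 1 highest and the array with the high Gapdh ratio, control replicate 2, lowest in each. The part of RNA quality in this spread was not tested. None of the 6 Itgb1 probe sets passed in any comparison, and their differences from control ran from -0.13 to 0.43 in Runx1KO and from -0.31 to 0.29 in RUNX1(41-214) cells.

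Itgb7, the partner of Itga4 in the gut-homing integrin and a chain of mast cell progenitors, was at 9.95, 9.79 and 9.65 in control arrays, 9.54, 10.11 and 9.05 in Runx1KO arrays and 10.10, 10.11 and 9.94 in RUNX1(41-214) arrays. The Runx1KO arrays surrounded the control arrays. The differences were -0.23 ± 0.24 (adjusted p = 0.915) in Runx1KO and 0.25 ± 0.24 (adjusted p = 0.694) in RUNX1(41-214) cells, and 0.48 ± 0.24 between the altered groups (adjusted p = 0.526). Without Runx1KO replicate 3, the Runx1KO difference was 0.03.

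Itgav, the alpha chain of vitronectin receptors, was at 9.29, 8.89 and 9.80 in control arrays, 9.58, 9.26 and 9.79 in Runx1KO arrays and 10.03, 10.22 and 9.38 in RUNX1(41-214) arrays. Its group means stood in the order control, Runx1KO, RUNX1(41-214), and neighbours in that order overlapped. The difference of 0.55 in RUNX1(41-214) cells (95% interval -0.05 to 1.15, adjusted p = 0.381) did not pass, nor did 0.22 in Runx1KO cells (adjusted p = 0.936). Itgb3, its partner and the CD61 chain of platelets, gave no usable level. The deposited signal was listed at 1.00 on 5 of the 9 arrays, a value shared by 342 to 396 probe sets per array, and did not exceed 4.93 on the others. Itgb3 values therefore have no order among groups, although Itga2b, the platelet partner chain of Itgb3, was read well above this floor.

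**Figure D3:**
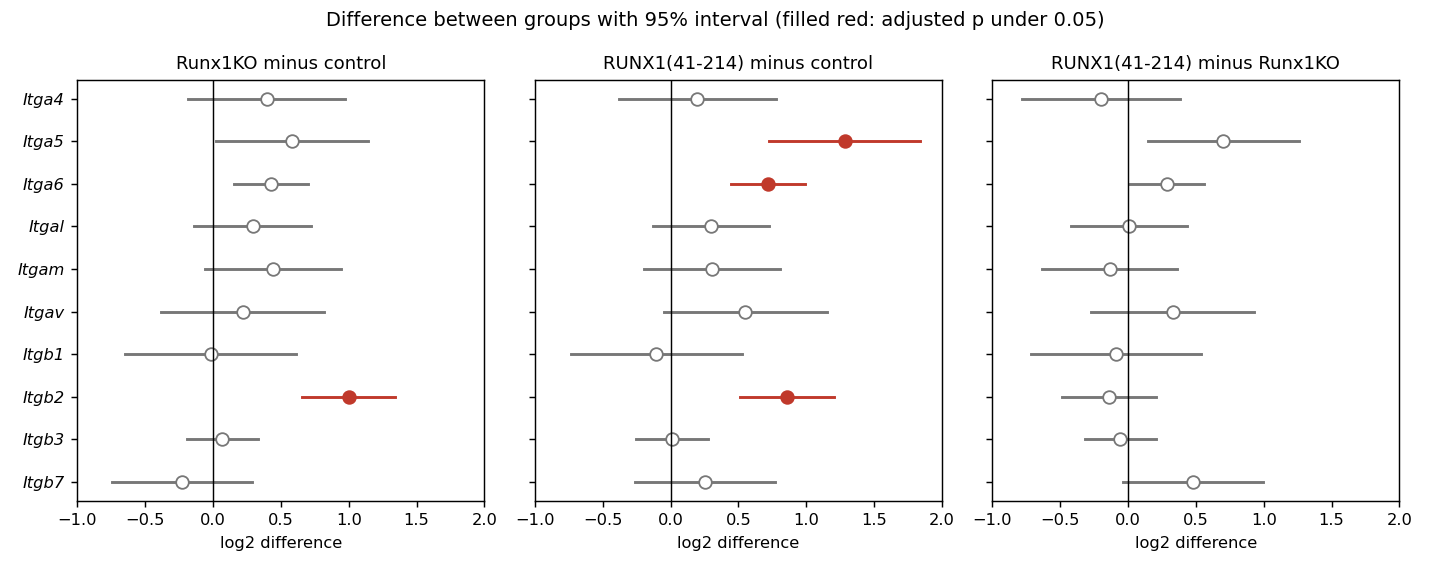
Log2 difference with its 95% interval (limma, 9 arrays) for the 10 integrin genes in the 3 comparisons, filled red where the adjusted p is under 0.05. Itgb2 is the filled point in Runx1KO minus control, Itga5, Itga6 and Itgb2 are filled in RUNX1(41-214) minus control, and none is filled in RUNX1(41-214) minus Runx1KO.

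Counted over the 10 genes, 1 passed in Runx1KO against control, where 0.347% of all genes did (0.234% as higher), and 3 had an unadjusted p under 0.05 (7.22% of all genes). In RUNX1(41-214) against control 3 passed, where 4.28% of all genes did (1.73% as higher), and 3 had an unadjusted p under 0.05 (15.5%). In RUNX1(41-214) against Runx1KO, 0 passed by limma where 1.36% of all genes did (0.299% as higher). There 2 of the 10, Itga5 and Itga6, had an unadjusted p under 0.05, as did 10.6% of all genes. All arrays of the group named first lay above those of the other for 3 of 10 genes in Runx1KO against control (5.34% of all genes), for 4 of 10 in RUNX1(41-214) against control (10%) and for 1 of 10 between the altered groups (9.67%). Tested probe set by probe set, Itgb2 alone passed in Runx1KO against control (0.137% of all probe sets), Itgb2, Itga5 and Itga6 each by 1 probe set in RUNX1(41-214) against control (3.05%), and 0 of 21 by limma between the altered groups (1.08%). The median difference was 0.34, 0.30 and -0.02 in the 3 comparisons, beside -0.0040, 0.02 and 0.02 over all genes. The comparisons against control share the 3 control arrays, so a low control array raises both differences of a gene. The 10 genes were chosen with earlier results of these data known, so these counts describe them and do not test the list.

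Other genes of integrin adhesion were taken from 4 lists. Their counts are to be read against the shares over all genes, 0.347%, 4.28% and 1.36% past the threshold and 7.22%, 15.5% and 10.6% at an unadjusted p under 0.05 in the 3 comparisons, and a count near these shares is no result about a list. Among the other integrin chains, 12 of 17 listed symbols were measured. Itga2b, the CD41 chain of megakaryocytes and early progenitors, was at 9.87 ± 0.02 in control, 11.16 ± 0.31 in Runx1KO and 11.89 ± 0.10 in RUNX1(41-214) cells (SD, n = 3 each) and was the 1 chain of this list past the threshold in Runx1KO (1.29 ± 0.15, adjusted p = 0.00426). It passed between the altered groups as well (0.74 ± 0.15, adjusted p = 0.0372). In RUNX1(41-214) cells Itga2b (2.02 ± 0.15) rose and Itgax fell. Itgb6, a chain known from epithelia, also passed as higher there, but its control arrays read 4.57, 4.09 and 4.48, one of them at the floor value of Itgb3, so the size of its change is not given. The medians of this list were 0.03, 0.12 and 0.20 in the 3 comparisons.

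Of the integrin ligands and counter-receptors, 19 of 22 were measured. Jam3, a junctional adhesion molecule that Mac-1 binds, rose by 1.59 ± 0.21 in Runx1KO and by 2.00 ± 0.21 in RUNX1(41-214) cells, the 1 passing gene of 19 in the former. Icam4, an ICAM of red cell precursors, rose beside it in RUNX1(41-214) cells (0.89 ± 0.18, adjusted p = 0.0151) and was at 0.37 ± 0.18 in Runx1KO cells. Between the altered groups 0 of 19 passed by limma, with 3 at an unadjusted p under 0.05. The list medians were 0.07, 0.14 and -0.05. Icam2, an LFA-1 ligand and the brightest gene of this list, was at -0.05 ± 0.19 and 0.24 ± 0.19 against control.

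Of the activation and adhesion linkers, 44 of 52 were measured, with list medians of 0.11, 0.08 and 0.01. In Runx1KO cells 0 passed by limma and 5 had an unadjusted p under 0.05; Fyb, the adaptor ADAP that couples receptor signals to integrin activation, had the lowest p (0.57 ± 0.15, adjusted p = 0.202). In RUNX1(41-214) cells Fyb rose by 1.26 ± 0.15 (adjusted p = 0.000623) and Tns1, a tensin that ties beta chain tails to actin, by 1.07 ± 0.27 (adjusted p = 0.0484). There Actn1, an actinin that crosslinks actin at adhesions, fell by 1.34 ± 0.21 (adjusted p = 0.00297) and Cd82, a tetraspanin partner of integrins, by 1.04 ± 0.26 (adjusted p = 0.0455). Between the altered groups 0 passed, with 10 at an unadjusted p under 0.05, and Fyb was at 0.69 ± 0.15 (adjusted p = 0.0514). Among the brightest linkers, Fermt3, the kindlin of blood cells, was at 0.10 ± 0.13 and 0.40 ± 0.13 against control and Rap1b, a GTPase upstream of talin, at 0.08 ± 0.09 and 0.17 ± 0.09, none past the threshold.

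Of the other homing receptors, 19 of 22 were measured, with list medians of 0.10, 0.23 and -0.09. In Runx1KO cells 2 rose, the sialomucin Podxl (1.45 ± 0.20) and the angiopoietin receptor Tek (1.21 ± 0.22, adjusted p = 0.0454). In RUNX1(41-214) cells 4 rose, P-selectin (Selp, 2.09 ± 0.18), Podxl (2.06 ± 0.20), Tek (1.59 ± 0.22) and the stem cell factor receptor Kit (0.57 ± 0.14, adjusted p = 0.0415), and Alcam, an immunoglobulin-family adhesion molecule, fell by 1.51 ± 0.30. Selp was the 1 gene of this list past the threshold between the altered groups (1.53 ± 0.18, adjusted p = 0.00222). Cd34, the brightest of them, was at 0.03 ± 0.11 and 0.23 ± 0.11 against control.

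**Figure D4:**
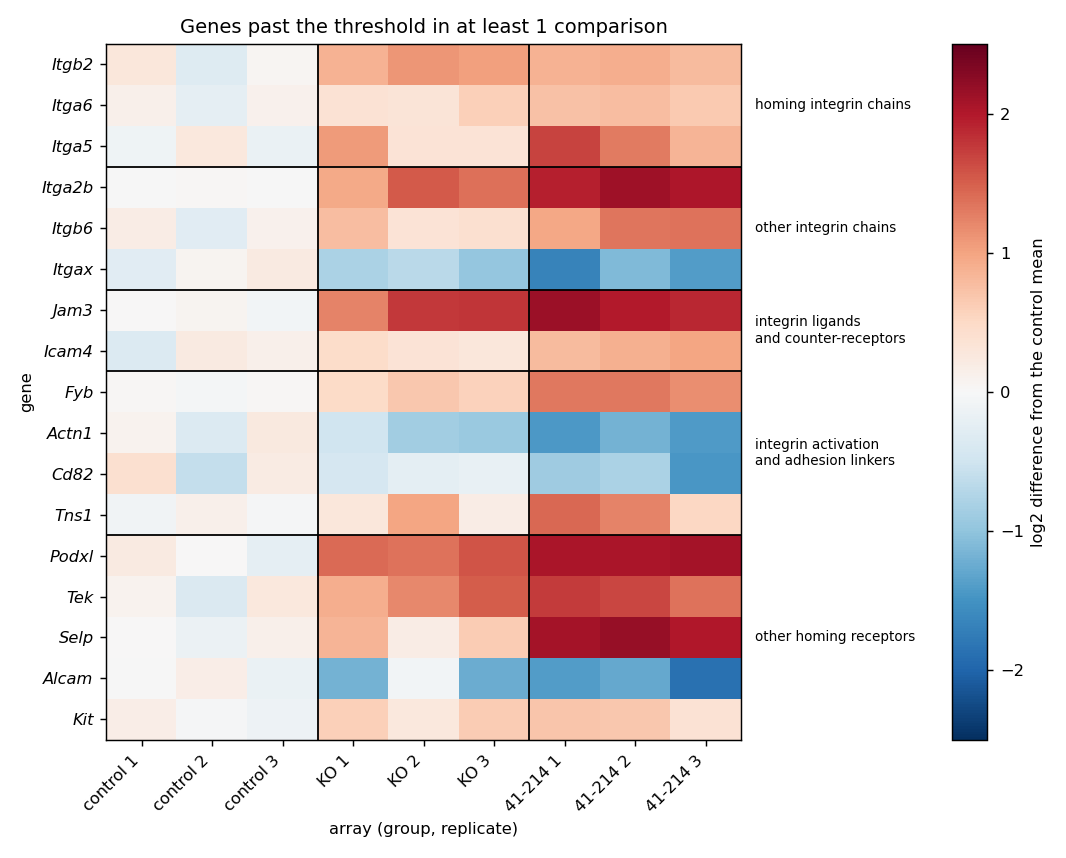
Log2 difference of each array from the control mean (colour) for the 17 genes of the homing integrins and the 4 adhesion lists that passed the test in at least 1 comparison. Itgb2 is coloured alike in both altered groups, while Itga6, Itga2b and Fyb are stronger in the 3 RUNX1(41-214) arrays than in the 3 Runx1KO arrays.

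Markers of other cells also differed between the groups, and the counts of genes past the threshold given here stand beside 0.347% of all genes in Runx1KO and 4.28% in RUNX1(41-214) cells against control. The summed level over 10 megakaryocyte and platelet genes (brightest Plek and Pf4) was 12.36 to 12.62 in control, 13.06 to 13.12 in Runx1KO and 13.31 to 13.71 in RUNX1(41-214) arrays. Of these genes, 2 rose in Runx1KO (Treml1 by 2.67 and Gp5 by 2.08) and 4 in RUNX1(41-214) cells (Treml1, Gp5, Clec1b and Plek), while Pf4 was at -0.07 and 0.76 and did not pass. For 10 mast cell and basophil genes (brightest Gata2 and Cpa3) the sums were 12.09 to 12.31, 12.80 to 13.07 and 13.13 to 13.32. Cpa3, a mast cell protease at 8.43, 11.46 and 12.20 in the 3 groups, was the 1 gene of this list that rose in Runx1KO cells, and Cpa3, Ms4a2 and Hdc rose in RUNX1(41-214) cells. The mast cell list did not move as a whole: 5 of 10 genes were above 0 in Runx1KO (median -0.03) and 6 of 10 in RUNX1(41-214) cells (median 0.11), with Fcer1a at -0.88 and -1.29 and Mcpt8 at -0.87 and -0.56.

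Granulocyte and monocyte genes (Mpo and Prtn3) overlapped between groups at 13.52 to 14.40, 13.62 to 14.28 and 13.92 to 14.24, with 0 of 17 past the threshold in Runx1KO (limma, 2 at an unadjusted p under 0.05) and 1 higher and 2 lower in RUNX1(41-214) cells. The higher gene there was Fcgr3 (2.75), and the lower were Ccr2 (-2.69) and Mpeg1 (-2.20). Fcgr3 was also at 2.75 in Runx1KO cells, short of the threshold (limma, adjusted p = 0.0527). T and NK cell genes (Nkg7 and Thy1) summed to 10.64 to 10.91, 9.78 to 10.56 and 9.30 to 9.65, with 1 and 4 of 12 lower. B cell genes (Ighm and Cd79b) summed to 12.63 to 12.84, 12.28 to 13.22 and 10.86 to 11.08, with 0 (limma, 0 at an unadjusted p under 0.05) and 3 of 11 lower. The B cell sum is led by Ighm, at 12.35 in control and 9.44 in RUNX1(41-214) cells. The B cell list did not fall as a whole there, with 4 of 11 genes above 0 (median -0.13). Erythroid sums led by Tfrc and Car1 overlapped (11.24 to 13.05, 11.35 to 12.05 and 11.04 to 12.25), but single genes moved. Slc4a1, the red cell anion exchanger, rose by 2.91 and Alas2, a haem synthesis enzyme, by 2.20 in RUNX1(41-214) against control. Both also passed as higher against Runx1KO, while the transferrin receptor Tfrc fell by 0.75 against control. The erythroid list did not rise as a whole in RUNX1(41-214) against control, with 3 of 8 genes above 0 (median -0.48). Car1 was at -1.38, Ermap at -1.09 and Klf1 at -0.82, none past the threshold. Stromal and endothelial sums led by Bgn and Pdgfrb were 11.52 to 11.75, 11.66 to 11.83 and 11.44 to 11.62. Each altered group overlapped control, and the RUNX1(41-214) arrays lay below the Runx1KO arrays. By limma 0 of 14 passed in any comparison, with 1, 2 and 2 at an unadjusted p under 0.05.

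Of the genes named in the sort, Kit was bright in every group, and Sca-1 (Ly6a) was not analysed here. Markers that divide stem cells from progenitors within such a sort also moved. Cd48, found on committed progenitors, rose by 1.01 ± 0.16 in Runx1KO (adjusted p = 0.0252) and by 1.36 ± 0.16 in RUNX1(41-214) cells (adjusted p = 0.000580). Procr, a stem cell marker, fell by 0.87 ± 0.16 in RUNX1(41-214) cells (adjusted p = 0.00991) and was at 0.05 ± 0.16 in Runx1KO cells. Slamf1, also a stem cell marker, went the other way, at 0.93 ± 0.29 in Runx1KO and 0.79 ± 0.29 in RUNX1(41-214) cells. Flt3, found on progenitors, was at -0.41 ± 0.20 and -0.60 ± 0.20. Neither passed by limma, and the list gave no single direction between stem cells and progenitors. Of its 6 measured genes, 5 and 4 were above 0 (medians 0.27 and 0.40). The part of these marker differences in the integrin results was not tested.

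For each integrin gene that passed, the 3 genes with the most similar profile were taken from 6110 genes above the median signal, by Pearson correlation over the 9 arrays. These arrays share group means, so the correlations describe the 3 groups more than single cells. Itgb2 was closest to Csf2rb, the shared beta chain of the GM-CSF and interleukin 3 receptors (r = 0.974), the kinase gene Btk (r = 0.968) and Rere (r = 0.960). Itga6 was closest to the myosin gene Myo7a (r = 0.989), Dhrs7 (r = 0.977) and Tek (r = 0.970). Itga5 was closest to Msrb1 (r = 0.975), Myct1 (r = 0.940) and Anxa7 (r = 0.939). The genes were picked for this likeness, so a shared group order was fixed by the choice.

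**Figure D5:**
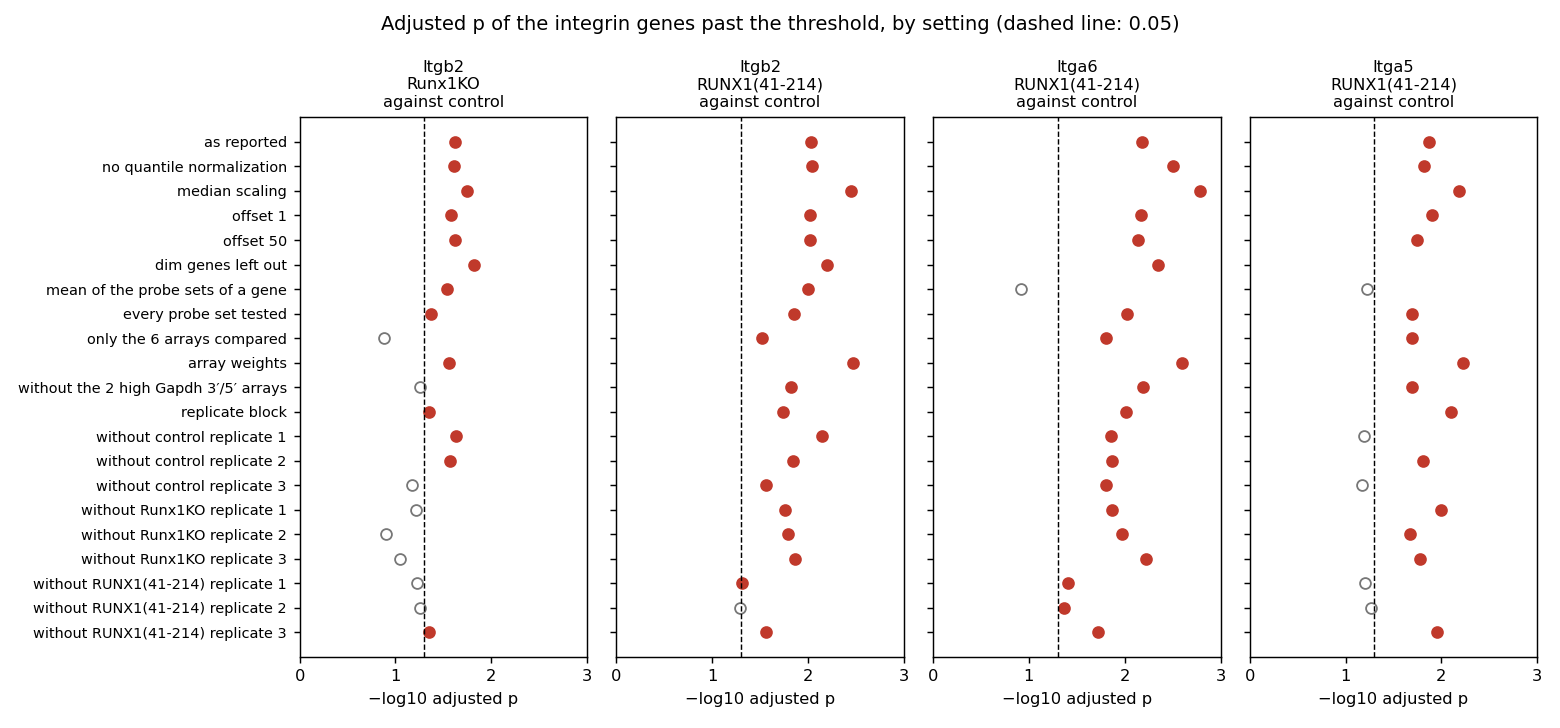
−log10 adjusted p of the 4 integrin results past the threshold under each setting, with the dashed line at 0.05 and open circles for settings that did not pass; Itga5 has no point where dim genes were left out. The Itgb2 result in Runx1KO cells has 8 open circles of 20 alternatives, Itga5 has 5 of 19, and Itga6 and Itgb2 in RUNX1(41-214) cells have 1 each.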

How the data were processed

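The deposited table holds a signal intensity per Affymetrix probe set on a linear scale (0.53 to 20215 over 22690 probe sets and 9 arrays). Per the labels' protocols, RNA was isolated on Qiagen microcolumns and amplified before biotin labelling; how probes were summarised and scaled is not given in the sources used here. After 64 control probe sets were set aside, log2(signal + 16) was quantile normalized. Probe sets with 1 gene symbol (20380) were kept, and each gene was read from its brightest probe set (12393 genes, 20351 probe sets matched to RefSeq identifiers, 0 symbols changed). Group means were estimated from the 9 arrays together (limma 3.58.1, R 4.3.3, variance trend, 6 residual and 5.60 prior degrees of freedom), two-sided. The number of arrays limits the precision (median SE 0.20). Fits were tested on simulated data. The integrin genes, the gene lists and the motifs were chosen with earlier results of these data known. Named genes are the 10 integrin genes, Runx1, up to 5 passing genes per adhesion list and comparison (else the lowest p), the 3 closest profiles per passing integrin gene and the 2 brightest genes per marker list; Icam2, Fermt3, Rap1b and the other marker genes were picked after their values were seen. Same-numbered replicates share no stated litter or day.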

Additional observations from a re-analysis of the deposited data

How the results depend on the processing

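Of the 30 integrin results (10 genes in 3 comparisons), 26 stayed on the same side of the threshold in each alternative that gave a value, and 4 lost their call in at least 1, Itgb2 in both comparisons with control and Itga5 and Itga6 in RUNX1(41-214) cells; 0 gained one. Itga5, Itgam and Itgb3 have no value where dim genes are left out. The count of integrin genes past the threshold in Runx1KO against control (1) was 0 with only the 6 arrays compared and 0 without the 2 arrays with high Gapdh ratios, and 0 to 1 when single arrays were left out. In RUNX1(41-214) against control (3) it was 1 with the mean of the probe sets and 1 to 3 with single arrays left out. Over all genes, the 43 calls in Runx1KO against control were 65 with dim genes left out, 9 with only the 6 arrays compared and 14 to 51 with single arrays left out. The 531 in RUNX1(41-214) against control were 295 to 613 with single arrays left out, and the 168 in RUNX1(41-214) against Runx1KO were 371 with array weights and 74 to 208 with single arrays left out. The cause of these shifts was not tested.

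Median scaling moved the median of all genes to 0.12 in RUNX1(41-214) against control and 0.11 against Runx1KO, and the share of calls that were higher from 40.3% to 52.1% in the former; the 3 integrin calls passed under it. Signs turned only for differences that passed in no setting. Without the high Gapdh arrays these were, in Runx1KO against control, Itgav (-0.12), Itgb3 (-0.053) and Itgb7 (0.025), Itgb3 in RUNX1(41-214) against control (-0.0077), and Itgal (-0.014) and Itgb3 (0.045) between the altered groups. Median scaling turned Itgb1 in Runx1KO (0.00057) and Itgb3 between the altered groups (0.064), the probe set mean turned Itgb1 in Runx1KO (0.064), array weights turned Itgb3 in RUNX1(41-214) against control (-0.028) and Itgal between the altered groups (-0.0023), and no quantile normalization turned Itgal there (-0.10). With single arrays left out, sign changes came for Itgb1 (-0.31 to 0.35), Itgb3 (-0.033 to 0.12) and Itgb7 (-0.50 to 0.030) in Runx1KO against control, for Itgb1 (-0.39 to 0.27) and Itgb3 (-0.039 to 0.051) in RUNX1(41-214) against control, and for Itgal (-0.014 to 0.020), Itgam (-0.32 to 0.074) and Itgb3 (-0.11 to 0.045) between the altered groups.

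With the replicate number as a block, the counts were 48, 539 and 171 over all genes and 1, 3 and 0 over the integrin genes. Deviations of same-numbered arrays correlated at -0.17 to 0.42, above 0.1 in only 3 of 9 pairs, so the numbers are not taken to pair the samples. As a hint the other way from the data, 6 of 9 arrays correlated best with an array of their own number. Dim signals limit Itga5, Itgam and Itgb3.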
